A study of Mus musculus with 24 samples.

Results

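The genes of the cytosolic ribosomal proteins were followed over all tumour groups of 2 mouse lung cancer lines. Members were the protein-coding genes listed in both expression tables whose symbol begins with Rpl or Rps and a digit, together with Rplp0, Rplp1, Rplp2 and Rpsa, leaving out the S6 kinases and symbols ending in a pseudogene tag. They numbered 85 of the 30428 genes in both tables, 51 named for the large subunit and 34 for the small subunit. The symbol rule also takes in Rps19bp1, which encodes a protein that binds Rps19, Rpl7l1, a paralogue of Rpl7, and the paralogues Rps27l, Rpl22l1 and Rps27rt. It leaves out Fau and Rack1, whose products sit in the ribosome, and these are described apart.

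Each ribosome joins a large and a small subunit, and every subunit needs its proteins in nearly equal numbers. The messenger RNAs of these proteins are among the most abundant in growing cells. Many start with a run of pyrimidines (a TOP motif), through which the growth kinase mTORC1 and the RNA-binding protein Larp1 control their translation and stability. Ribosomal protein genes are scattered over the chromosomes, and nearly all have processed pseudogenes elsewhere in the genome.

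RNA came from 24 tumour samples in 8 groups of 3. Both lines are syngeneic: LLC1, the Lewis lung carcinoma, and KP, from an engineered model that carries a G12D allele and p53 flox/flox. Mice received tumour cells, and on day 15 live cells negative for the leukocyte antigen CD45 were sorted from the tumours. LLC1 tumours were parental, chronic IFNG (exposed to low-level chronic interferon gamma) or relapsed (labelled ICB-relapsed, for immune checkpoint blockade), and KP tumours comprised a parental and a chronic IFNG group and relapses labelled 1st, 2nd and late. The labels list the treatment as none for every group, give no mouse age or strain, and do not say which ICB agent was used or whether a relapsed line is 1 clone. The submitters call the 3 samples of a group biological replicates without naming animals, so p-values measure the spread between these samples. Levels are normalised counts calculated back from the deposited log2 values, and differences are on the deposited log2 scale. Calls rest on limma, with p-values adjusted over all kept genes of a comparison and a threshold of 0.05. The lines were normalised separately, so tests were made only within a line.

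Libraries of LLC1 ranged from 13.3 to 34.9 in estimated depth and those of KP from 13.7 to 32.6, in M fragments. Leukocyte markers summed to at most 34.3 CPM (counts scaled to the library total) in any library. The 7 epithelial markers in the tables summed to 4400 to 8780 CPM in KP and to 197 to 373 in LLC1, where 2 of them, Krt8 and Krt18, passed the filter and Epcam stayed at 0 to 1.22. Fibroblast markers differed between groups, and their values stand beside the results they move with. In sorted bulk samples, fewer cells of a type and less RNA per cell cannot be told apart.

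Of the 85 members, 83 passed the filter on low values in each line. Rpl39l and Rpl3l, paralogues of Rpl39 and Rpl3 known from testis and muscle, stayed at 0 to 7.3 and 0 to 6.8 normalised counts in every library. RefSeq promoter entries (GRCm38.p6) matched 65 members, and windows of 45 bases before to 30 bases from the start site are shown for a few of them. Each printed window holds a pyrimidine-rich word, in capitals, while most members with an entry had none of the words described below. The printed windows therefore do not stand for the members as a whole, and a tie between word and movement was not tested. Rpl18, Rpl13a and Rps9 are examples of members that fell in relapsed LLC1 (by 0.42, 0.31 and 0.35 on the log2 scale) and rose in 2nd relapse KP tumours (by 0.59, 0.41 and 0.40). Other members that did so are not shown. Rps6 is shown because it rose in 2nd relapse (0.47) but was not called in relapsed LLC1 (-0.04), and Rps27 and Rps27rt because they are a near-identical pair.
Rpl18 (chr7:45718026-45718100, plus strand): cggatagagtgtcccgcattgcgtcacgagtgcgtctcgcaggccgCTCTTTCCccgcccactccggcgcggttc
Rpl13a (chr7:45128716-45128790, minus strand): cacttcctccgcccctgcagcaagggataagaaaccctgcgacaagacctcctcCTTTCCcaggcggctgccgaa
Rps6 (chr4:86857338-86857412, minus strand): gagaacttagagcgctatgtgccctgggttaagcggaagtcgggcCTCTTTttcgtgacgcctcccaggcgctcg
Rps9 (chr7:3703996-3704070, plus strand): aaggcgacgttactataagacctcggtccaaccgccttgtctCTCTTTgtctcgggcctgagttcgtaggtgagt
Rps27 (chr3:90213619-90213693, minus strand): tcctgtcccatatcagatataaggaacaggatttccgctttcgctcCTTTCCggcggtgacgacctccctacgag
Rps27rt (chr9:114982710-114982784, minus strand): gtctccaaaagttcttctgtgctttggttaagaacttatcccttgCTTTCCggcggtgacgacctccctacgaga

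Pyrimidine-rich words were searched on the gene's strand from 5 bases before to 35 bases after the start. The word CTTTCC was present in 12 of 65 members (18.5%) and 1.9% of all 27025 genes with an entry. The word CTCTTT, which can overlap it, was present in 13.8% and 1.5%, and the word CTTTTC in 7.7% and 1.5%. At least 1 of these words was present in 20 members (30.8%) and in 4.4% of all genes. The ETS-type word CCGGAAG, on either strand of the 300-base entry, was found in 40% of members and 9.9% of all genes. AAGATGGC, a core of the YY1 motif, was found in 9.2% and 3.2%, and the GC-box word GGGCGG in 61.5% and 38.2%. TATAAA on the gene's strand was found in 9.2% of members and 9.8% of all genes. A match is a description of letters in the window, not a binding site.

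In parental tumours the order of the members by normalised counts per kilobase of coding sequence was alike in the 2 lines (Spearman 0.92 over 83 genes that share libraries within each line). Rpl41, the shortest ribosomal protein, had the highest level per length, 324400 ± 11500 in LLC1 and 225100 ± 16600 in KP (SD, n = 3). The median member stood at 34850 per kilobase in LLC1 and 21410 in KP. Rps29, Rplp1, Rps18 and Rps12 followed Rpl41 in LLC1, with 106100 ± 4790, 72310 ± 1720, 69030 ± 939 and 65440 ± 3530 per kilobase, where the last 2 did not differ beyond their spread. Levels are divided by coding length alone, which raises short genes whose reads also fall in untranslated parts. Rpl22l1, Rps27l and Rpl7l1 stood below the median member, and Rps27rt, at 35240 ± 9080 in LLC1, did not. Rpl22l1 had 6071 ± 741 per kilobase against 17790 ± 988 for Rpl22 in parental LLC1, Rps27l 6387 ± 403, and Rpl7l1 3463 ± 142 against 41230 ± 1590 for Rpl7.

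Summed over members, ribosomal protein RNA made up 6.08% to 6.46% of the counts in parental LLC1 libraries, 5.38% to 5.79% in chronic IFNG and 5.19% to 5.62% in relapsed ones. Both other LLC1 groups lay below all parental libraries. In KP the share was 3.89% to 4.12% in parental tumours, 3.81% to 3.98% in chronic IFNG, 4.01% to 4.25% in 1st relapse, 4.66% to 5.03% in 2nd relapse and 4.17% to 4.37% in late relapse. Every 2nd and late relapse library lay above every parental KP library. The shares of large-subunit members alone were 2.78% to 3.01% in 2nd relapse against 2.23% to 2.33% in parental KP tumours, and those of small-subunit members 1.88% to 2.03% against 1.67% to 1.78%.

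**Figure D1:**
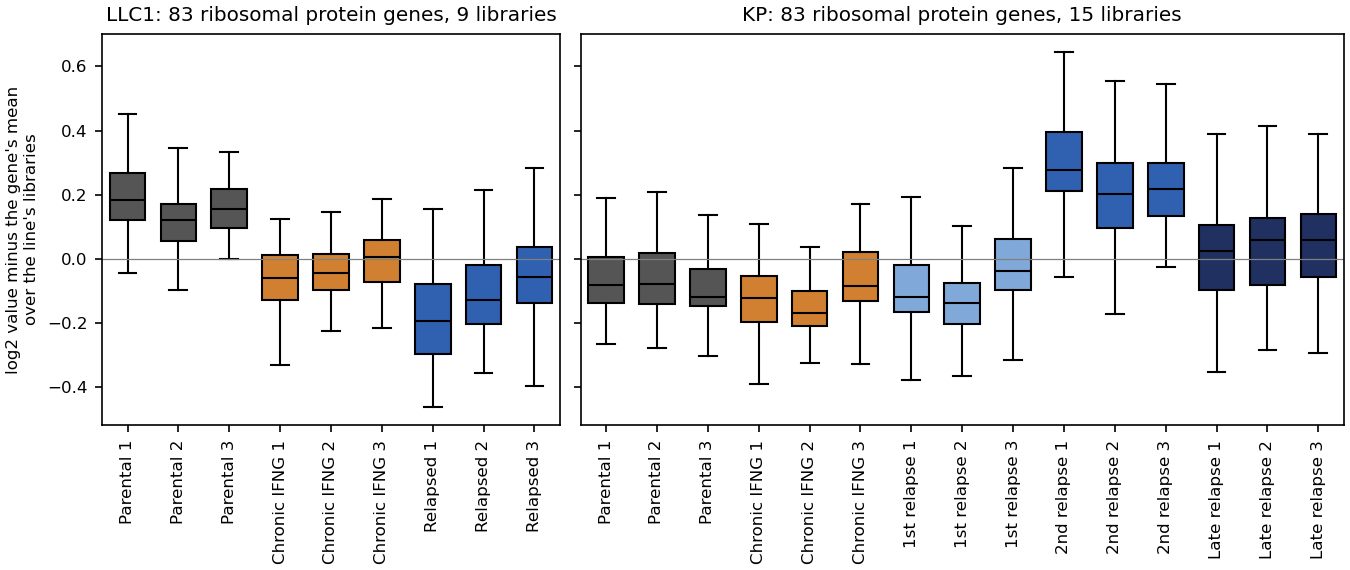
Deviation of each of the 83 kept ribosomal protein genes from its own mean over the line's libraries, on the log2 scale, per library in LLC1 (left) and KP (right). Boxes span the quartiles with the median as a line and whiskers reach 1.5 interquartile ranges, outliers not drawn. Parental LLC1 medians (0.12 to 0.18) lie above the other LLC1 libraries, and 2nd relapse KP medians (0.20 to 0.28) above all other KP libraries.

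Chronic IFNG LLC1 tumours had lower ribosomal protein RNA than parental LLC1 tumours, from members of both subunits. Of 83 members 46 were lower and 0 higher, where limma called 15.5% of all genes lower and 9.03% higher (60 members had an unadjusted p below 0.05). The median member difference was -0.20, a 1.15-fold lower level, against -0.02 over all genes tested. Large-subunit members gave 29 lower of 49 and small-subunit members 17 of 34. The 3 libraries lay below all 3 parental ones for 66 members and above them for 1, in a comparison where the groups did not overlap for 38.6% of genes.

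Rps7, a small-subunit protein mutated in some inherited anaemias, had 32731, 30429 and 32941 normalised counts in parental LLC1 and 23174, 23163 and 23243 in chronic IFNG tumours. The 2 groups were well separated. The difference was -0.46 (SE 0.06, limma adjusted p 0.00069). Rpl8, a large-subunit protein next to the site of peptide bond formation, had 38211, 36269 and 37659 counts against 27229, 29341 and 29942. All chronic IFNG libraries were lower, with a difference of -0.37 (limma adjusted p 0.0027). Rps29 fell by 0.38 on the log2 scale, Rps14 by 0.39, Rpl36al by 0.37 and Rpl17 by 0.37.

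Rps23, which lies in the decoding centre, had the lowest called difference in this comparison, -0.49 (limma adjusted p 0.0016), and -0.40 once counts of its near-identical copies were added. The highest differences apart from Rps27 were 0.22 for Rpl10 (limma adjusted p 0.063), 0.09 for Rps20, 0.07 for Rpl12 and 0.02 for Rpl39, none of them called. Fibroblast markers moved with this comparison, with 8 of 12 higher and 0 lower and summed levels of 22600 to 35600 CPM against 11900 to 16800 in parental tumours. All 10 cell-cycle markers were lower, summing to 808 to 997 against 1210 to 1460 CPM. Their part in the result was not tested. Without parental replicate 1 the count of lower members was 24, and without chronic IFNG replicate 2 it was 25. Quantile normalisation left 19 lower and 2 higher, with a median of -0.10.

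Relapsed LLC1 tumours had lower ribosomal protein RNA than parental ones, with shares that overlapped those of chronic IFNG tumours, while 3 members moved the other way. Of 83 members 58 were lower and 3 higher, where limma called 19.5% of all genes lower and 25.9% higher. The median member difference was -0.27 against 0.02 over all genes. Large-subunit members gave 36 lower and 2 higher of 49, small-subunit members 22 lower and 1 higher of 34. The groups did not overlap for 65 members lower in relapsed tumours and 3 higher, and for 58.8% of all genes.

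Rpl17, which lines the tunnel through which the new peptide leaves, had 24895, 23298 and 22969 counts in parental tumours and 13306, 14193 and 14754 in relapsed ones. Every relapsed library was far below every parental one. It fell by 0.73 on the log2 scale (SE 0.06, limma adjusted p 6.7e-06), from 23720 ± 1030 to 14080 ± 731 (SD, n = 3). Rps14, a small-subunit protein lost in the human 5q syndrome, had 20333, 19640 and 20907 counts against 11737, 12632 and 12844. It fell by 0.69 (limma adjusted p 8.4e-06), with no overlap. In chronic IFNG tumours both genes lay between the other groups, at 17720 to 19081 and 14495 to 15898.

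Rpl22l1, the paralogue that can stand in for the large-subunit protein Rpl22, had 2132, 2007 and 2526 counts in parental and 1172, 1294 and 1214 in relapsed LLC1 tumours. The groups were well apart, a fall of 0.67 (limma adjusted p 3.2e-05). Rpl22 itself fell less, by 0.24 (limma adjusted p 0.011). Rps27a, which is made as a fusion with ubiquitin, fell by 0.61 and Rpl32 by 0.52, both with limma adjusted p at or below 0.00011. Rps13 fell by 0.46, Rps19 by 0.46 and Rps29 by 0.50.

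Rps3a1, a small-subunit protein at the mRNA exit, was among the 3 that rose. It had 30072, 27534 and 29405 counts in parental, 25334, 25281 and 25706 in chronic IFNG and 32745, 33781 and 35914 in relapsed LLC1 tumours. The relapsed group was the highest and the chronic IFNG group the lowest, with no overlap between any groups. Its differences from parental were 0.23 in relapsed (limma adjusted p 0.0067) and -0.18 in chronic IFNG tumours. Rpl34 rose by 0.20 in relapsed tumours (9731, 10915 and 11226 against 9303, 8679 and 9560 counts, limma adjusted p 0.024). The third was Rpl10, an X-linked protein that joins the subunit late, at 0.21, but with its copies added its difference was -0.44. Rps27rt at 0.20 and Rps19bp1 at 0.05 were next in order and not called. Without relapsed replicate 2, or without replicate 3, 1 member was called higher, and quantile normalisation gave 8 higher with a median of -0.15.

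Rpl8, called lower in chronic IFNG LLC1, had 35271, 37597 and 39714 counts in relapsed tumours, a range that spans the parental one, with a difference of 0.00. Rps12, Rps19bp1, Rpl9 and Rpl13 were among the members that varied least over the LLC1 groups, with ranges of group means of 0.06, 0.11, 0.12 and 0.13 and no call in limma's F test over groups. That F test called 70 of 83 members in LLC1, beside 60.7% of all genes. Fibroblast markers summed to 13200 to 15000 CPM in relapsed LLC1 tumours, inside the parental range, with 1 of 12 higher and 6 lower. Cell-cycle markers were higher for 7 of 10, at 1670 to 1730 against 1210 to 1460 CPM, as were epithelial markers in sum (349 to 373 against 236 to 301 CPM). Leukocyte markers summed to 12.2 to 34.3 against 5.05 to 6.9 CPM and erythroid markers to 3.74 to 38.7 against 0.535 to 1.52. Genes above the lowest value numbered 22104 to 22661 in relapsed and 25807 to 29069 in parental LLC1 libraries, and the part of these in the result was not tested.

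**Figure D2:**
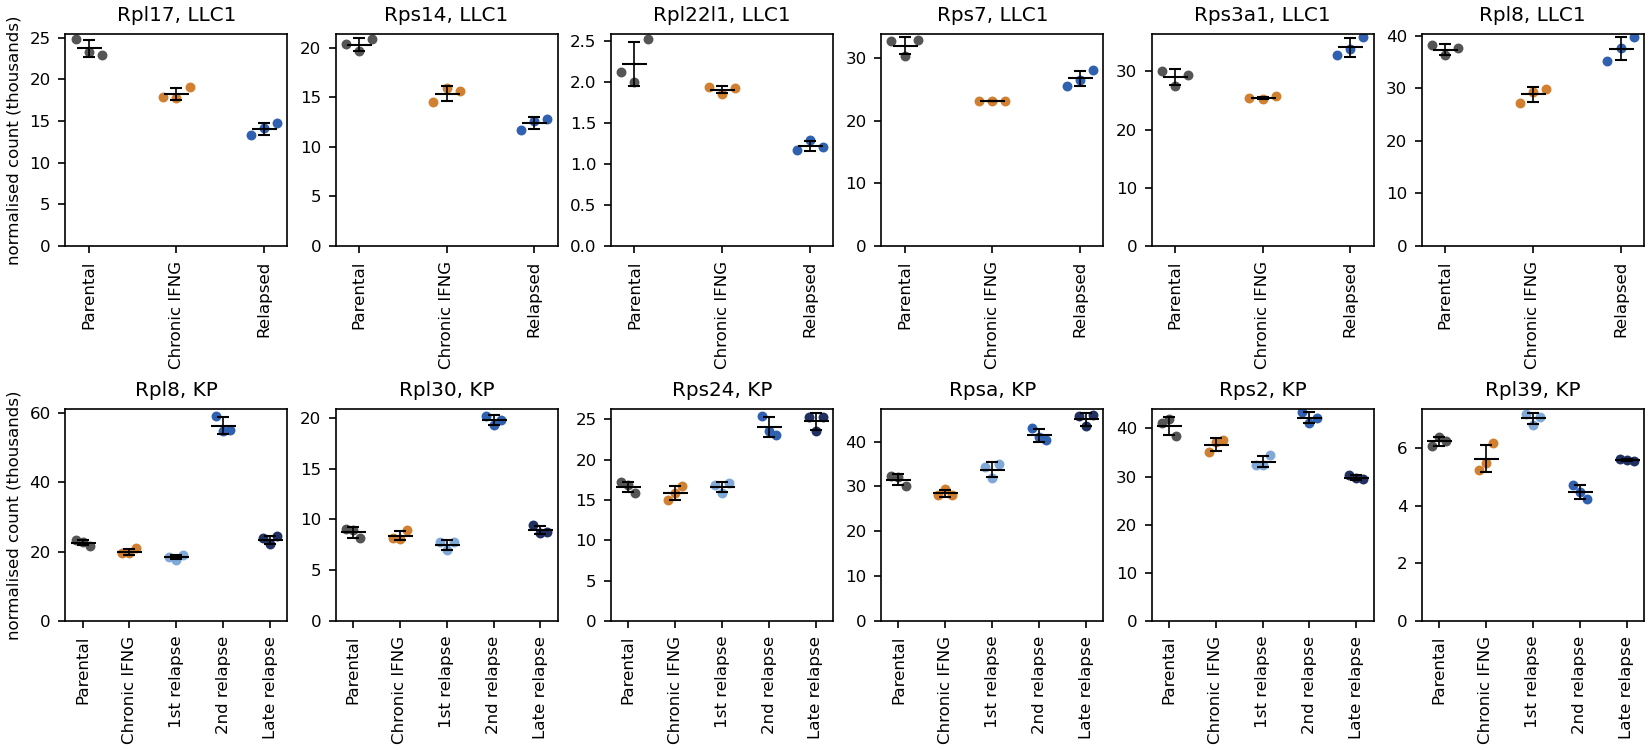
Normalised counts, divided by 1000, of 6 ribosomal protein genes in LLC1 (top) and 6 in KP (bottom). Points are libraries and bars show the group mean ± SD (n = 3). Rpl17, Rps14 and Rpl22l1 are lowest in relapsed LLC1, Rps7 is lowest in chronic IFNG LLC1, and Rpl8 and Rpl30 stand apart in 2nd relapse KP tumours.

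Set directly against chronic IFNG LLC1 tumours, relapsed tumours had 34 members lower and 12 higher, where limma called 20.5% of genes lower and 31.5% higher (52% in all). The members' median was -0.12 against 0.04 over all genes. The highest called differences were Rps3a1 at 0.42 and Rpl8 at 0.37. The lowest called differences were Rpl22l1 at -0.49 (limma adjusted p 0.00016) and Rps13 at -0.41. Rps27rt (0.71) and Rps27 (-1.94) lay beyond them and were not called. Without relapsed replicate 1 the count of lower members was 20, and without relapsed replicate 3 the count of higher members was 7.

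In KP, chronic IFNG tumours differed little from parental ones. Of 83 members 6 were lower and 0 higher, where limma called 9% of genes lower and 12.8% higher, and 15 members had an unadjusted p below 0.05. The groups did not overlap for 20 members lower and 2 higher, beside 38.4% of all genes. The 6 were Rps23 (-0.28), Rpl41 (-0.22), Rps12 (-0.20), Rpl31 (-0.18), Rpl8 (-0.17) and Rps2 (-0.14). Rps12 had 20184, 20307 and 18338 counts in parental and 15993, 17268 and 17536 in chronic IFNG tumours, without overlap. The highest differences apart from Rps27 were 0.12 for Rps21 and Rps13, 0.11 for Rpl24 and 0.09 for Rpl35a, none called. The median was -0.04 against -0.01 over all genes, and the count of lower members was 3 without parental replicate 1 or 2 and 2 without chronic IFNG replicate 1. Quantile normalisation turned the median to 0.03, with 4 higher and 3 lower, and median centring gave 12 lower. Without chronic IFNG replicate 2, 2 members were called higher. Epithelial markers were higher for 4 of 6 in chronic IFNG KP tumours (5070 to 6190 against 4400 to 4420 CPM), and their part was not tested.

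First relapse KP tumours showed members moving both ways around a median of -0.01, beside -0.01 over all genes. Limma called 17 higher and 21 lower, beside 25.4% and 25.5% of all genes, with 9 higher and 12 lower in the large subunit and 8 and 9 in the small. Both shares are near those of all genes. No overlap between groups was seen for 23 members higher and 27 lower, beside 59.2% of all genes. Rpl24, at the bridge between the subunits, rose by 0.29, Rps27l, a p53 target, by 0.24, Rps4x by 0.23 and Rps13 by 0.22. Rps23 had 9377, 9230 and 8578 counts in parental and 5670, 5790 and 5763 in 1st relapse tumours. It lay lower in all 3 libraries and fell by 0.61 (limma adjusted p 2.8e-06), and by 0.58 with its copies added.

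Rpl37 fell by 0.32 and Rpl8 by 0.29 in 1st relapse tumours. The count of higher members rested on single libraries, being 4 without 1st relapse replicate 3, 10 without replicate 1, and 7 and 5 without parental replicates 1 and 3. It also rested on scaling, being 32 with 9 lower under quantile normalisation (median 0.08) and 9 under median centring or without the filter. Fibroblast markers were higher for 10 of 11 tested (3040 to 4290 against 726 to 1120 CPM). Epithelial markers rose for 4 of 6 (5640 to 6650 against 4400 to 4420 CPM). Cell-cycle markers were higher for 7 of 10 (952 to 1050 against 676 to 802 CPM). The part of these lists in the result was not tested.

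Second relapse KP tumours had higher ribosomal protein RNA than parental KP tumours across both subunits. Of 83 members 66 were higher and 4 lower, where limma called 36.8% of all genes higher and 29% lower. The median member difference was 0.34, a 1.27-fold higher level, against 0.03 over all genes. Large-subunit members gave 40 higher and 4 lower of 49, and small-subunit members 26 higher and 0 lower of 34. The groups did not overlap for 66 members higher in 2nd relapse tumours and 6 lower, and for 71.5% of all genes. Quantile normalisation lowered the count to 37 higher with 13 lower and the median to 0.13.

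Rpl8 rose most, with 23274, 22939 and 21694 counts in parental and 59154, 54794 and 55035 in 2nd relapse tumours. It rose 2.49-fold, by 1.29 on the log2 scale (SE 0.05, limma adjusted p 6.6e-11), and no copy of it is listed in the annotation. Rpl30 had 9082, 8982 and 8136 counts against 20240, 19294 and 19773, a 2.26-fold rise (1.13, limma adjusted p 5.8e-10). In both genes the 2nd relapse libraries stood alone, far above all 12 other KP libraries. Rpl37 rose 1.97-fold (0.92), Rpl32 1.67-fold (0.71) and Rpl3, a large-subunit protein near the peptidyl transferase centre, 1.60-fold (0.66).

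All 3 genes of the stalk, which recruits translation factors, rose, with Rplp0 at 0.42, Rplp1 at 0.39 and Rplp2 at 0.45. Rps6, the target of S6 kinase, rose by 0.47, Rps27a by 0.47, Rpl22 by 0.43, Rpl13a by 0.41, Rpsa by 0.39 and Rps14 by 0.34. Rps19 rose by 0.19 with overlapping groups (limma adjusted p 0.046), and its difference was -0.04 under quantile normalisation.

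Rpl39, a small protein at the narrow part of the peptide exit tunnel, went the other way. It had 6073, 6391 and 6250 counts in parental, 7173, 6814 and 7086 in 1st relapse, 4722, 4458 and 4224 in 2nd relapse and 5618, 5583 and 5560 in late relapse tumours. The 1st relapse libraries were the highest, the 2nd relapse libraries the lowest, and these 4 groups did not overlap. It fell by 0.44 in 2nd relapse tumours (limma adjusted p 5.1e-06) and rose by 0.16 in 1st relapse tumours (limma adjusted p 0.024). The other 3 lower members were Rpl10 (-0.39), Rpl35 (-0.22) and Rpl7l1 (-0.18). With copies added Rpl10 was at 0.05, Rpl35 at -0.13, and Rpl12, at -0.12 and not called, at 0.14.

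Fibroblast markers were lower for 10 of 11 in 2nd relapse tumours, at 91.2 to 120 CPM against 726 to 1120. Epithelial markers were higher for 6 of 6 (8090 to 8780 against 4400 to 4420 CPM) and cell-cycle markers for 9 of 10 (893 to 1010 against 676 to 802 CPM). Their part in the rise of the members was not tested.

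Late relapse KP tumours had 39 members higher and 11 lower than parental tumours, where limma called 31% of all genes higher and 25.9% lower (56.9% in all). The members' median was 0.13 against 0.01 over all genes. Large-subunit members gave 25 higher and 5 lower, small-subunit members 14 higher and 6 lower. The groups did not overlap for 45 members higher and 14 lower, beside 62.4% of all genes. Rps24, a small-subunit protein needed for pre-rRNA processing, had 17176, 16798 and 15897 counts in parental and 25324, 23550 and 25331 in late relapse tumours. It rose 1.49-fold (0.56, SE 0.06, limma adjusted p 1.4e-06), with no overlap. Rpsa, also known as the laminin receptor precursor, had 32336, 32031 and 30080 counts against 45634, 43364 and 45922, a rise of 0.51 (limma adjusted p 1.6e-06).

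Rpl23 rose by 0.44 and Rpl26 by 0.37 in late relapse tumours, and both encode large-subunit proteins that can bind Mdm2 or p53 mRNA outside the ribosome. Rps2, at the mRNA entry channel, had 41169, 41892 and 38482 counts in parental, 43370, 41088 and 42164 in 2nd relapse and 30334, 29609 and 29447 in late relapse tumours. Only the late relapse group lay apart from parental among these, and it fell by 0.43 (limma adjusted p 4e-06). Rps2 was also called lower in chronic IFNG (-0.14) and 1st relapse tumours (-0.29). In late relapse tumours Rps10 fell by 0.39, Rpl7l1 by 0.38, Rps28 by 0.34 and Rpl10 by 0.34 (by 0.12 with copies added). Rpl8, so high in 2nd relapse tumours, had 23827, 22130 and 24388 counts in late relapse tumours, overlapping the parental range, with a difference of 0.05. Rps27, at 0.68, was not called. Epithelial markers were higher for 6 of 6 (5490 to 5800 against 4400 to 4420 CPM) and cell-cycle markers for 7 of 10 (861 to 1080 against 676 to 802 CPM) in late relapse tumours, and their part was not tested.

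Relapses were also compared with each other. Second against 1st relapse tumours had 66 members higher and 5 lower, where limma called 34.3% of genes higher and 28% lower (62.2% in all), with Rpl8 at 1.58 and Rpl30 at 1.33. Rps27rt was higher still at 1.77 (limma adjusted p 0.0074), but 0.83 without 1st relapse replicate 3, where it had 513 counts against 5401 and 7761 in the other two. Separate groups were seen for 67 members higher and 6 lower, beside 68.1% of all genes. Their median was 0.33 against 0.02 over all genes, but 0.00 with 22 higher and 15 lower under quantile normalisation. Rpl39 (-0.59) and Rpl10 (-0.45, and -0.16 with copies summed) were the lowest called, and Rps27, at -2.14, was not called and stood at 0.34 with Rps27rt added. Late against 2nd relapse tumours had 46 members lower and 3 higher, beside 29.7% and 25.2% of all genes (54.9% in all), and 24 lower and 10 higher under quantile normalisation. Rpl8 (-1.24), Rpl30 (-1.10) and Rpl37 (-0.83) were lowest. The 3 higher members were Rpl14 (0.38), Rpl35 (0.29, and 0.19 with copies summed) and Rpl39 (0.29), while Rps27, at 0.50, was not called. These comparisons share the 2nd relapse libraries with each other, and the comparisons with parental tumours share the parental libraries. Over all KP groups limma's F test called 79 of 83 members, beside 87% of all genes. Rpl5, Rpl12, Rpl36a, Rpl27a and Rps19 varied least, with ranges of group means of 0.13, 0.16, 0.18, 0.21 and 0.21, and Rpl5, Rpl12 and Rps19 were not called. For Rpl5 and Rpl12 these ranges are of each gene's own row, and with copies summed Rpl5 was at -0.22 in 1st and 0.40 in 2nd relapse tumours against parental ones, both called by limma.

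**Figure D3:**
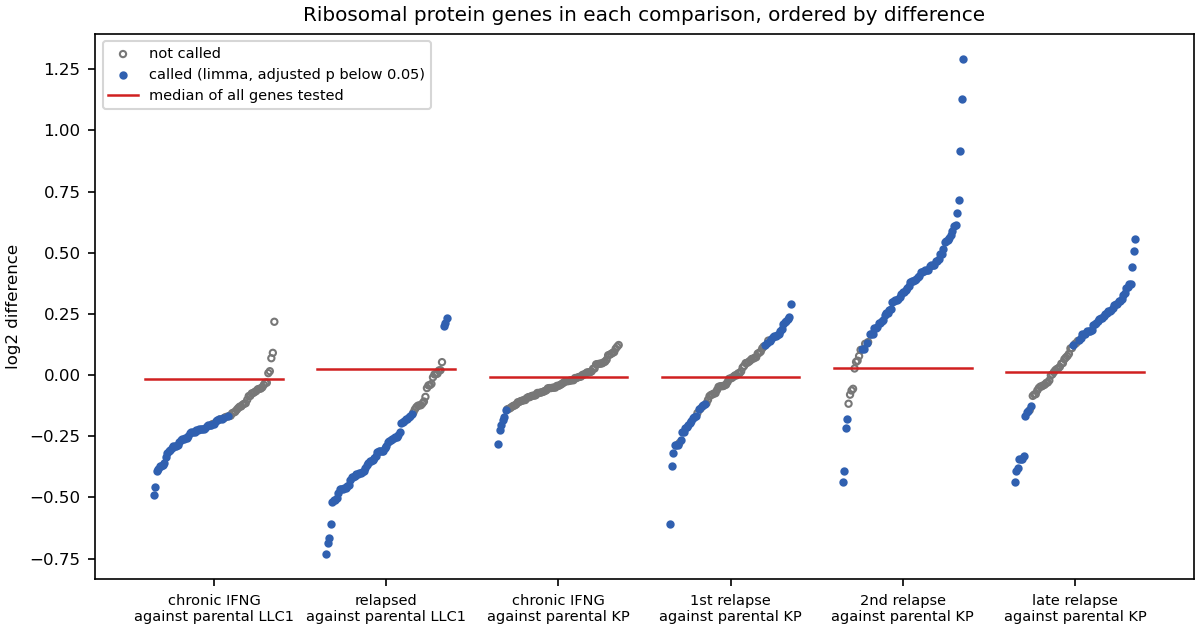
Log2 differences of 81 ribosomal protein genes in each comparison with parental tumours, ordered within each comparison, without Rps27 and Rps27rt. Filled points were called by limma (adjusted p below 0.05), open points were not, and red bars mark the median of all genes tested. The points lie mostly below 0 in both LLC1 comparisons and mostly above 0 in 2nd relapse KP tumours, where 3 genes stand beyond 0.9.

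Members on the same chromosome moved alike in several comparisons. In 2nd relapse KP tumours all 5 members on chromosome 15 were called higher, with a median of 0.92. They were Rpl8 (chr15:76904078-76906314), Rpl30 (chr15:34440505-34443640), Rpl37 (chr15:5116645-5119140), Rpl3 (chr15:80077791-80091868) and Rps19bp1, all in GRCm38. The 463 other kept genes of chromosome 15 had a median of 0.29, above the 0.03 of all genes. Members on all other chromosomes, without Rps27 and Rps27rt, had a median of 0.32, with 61 higher and 4 lower of 76. Other genes within 5 Mb of the member had medians of 0.57 around Rpl8, 0.54 around Rpl30, 0.49 around Rpl3 and 0.29 around Rpl37.

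The 4 X-linked members had a median of -0.14 in 2nd relapse tumours, beside -0.32 for other X-linked genes. They were split, with Rpl39 (-0.44) and Rpl10 (-0.39) called lower and Rps4x (0.13) and Rpl36a (0.11) called higher. With its copies added Rpl10 stood at 0.05. The neighbours of Rpl39 (chrX:37082520-37085402) had a median of -0.46, next to its own -0.44. In late relapse tumours all 7 kept members on chromosome 17, Rps2 and Rps10 among them, lay below 0. Their median was -0.34 where other genes of that chromosome had -0.21. The same 7 members also lay below 0 in 1st relapse tumours, from -0.29 for Rps2 to -0.08 for Rpl10a. Rps24 on chromosome 14 and Rpsa on chromosome 9 had neighbours at 0.14 and -0.04 in late relapse tumours, against their own 0.56 and 0.51.

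In relapsed LLC1 tumours the chromosome 18 members Rpl17 (chr18:74998558-75003381) and Rps14 (chr18:60747098-60778546) had a median of -0.71, beside -0.26 for 276 other genes there. Chromosome 3 genes were higher in these tumours, with a median of 0.29. Its members Rps3a1 (neighbours 0.32) and Rpl34 (neighbours 0.29) were among the 3 called higher. Rpl22l1 (chr3:28805436-28807424) lay at -0.67 with neighbours at 0.33, opposite to them.

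**Figure D4:**
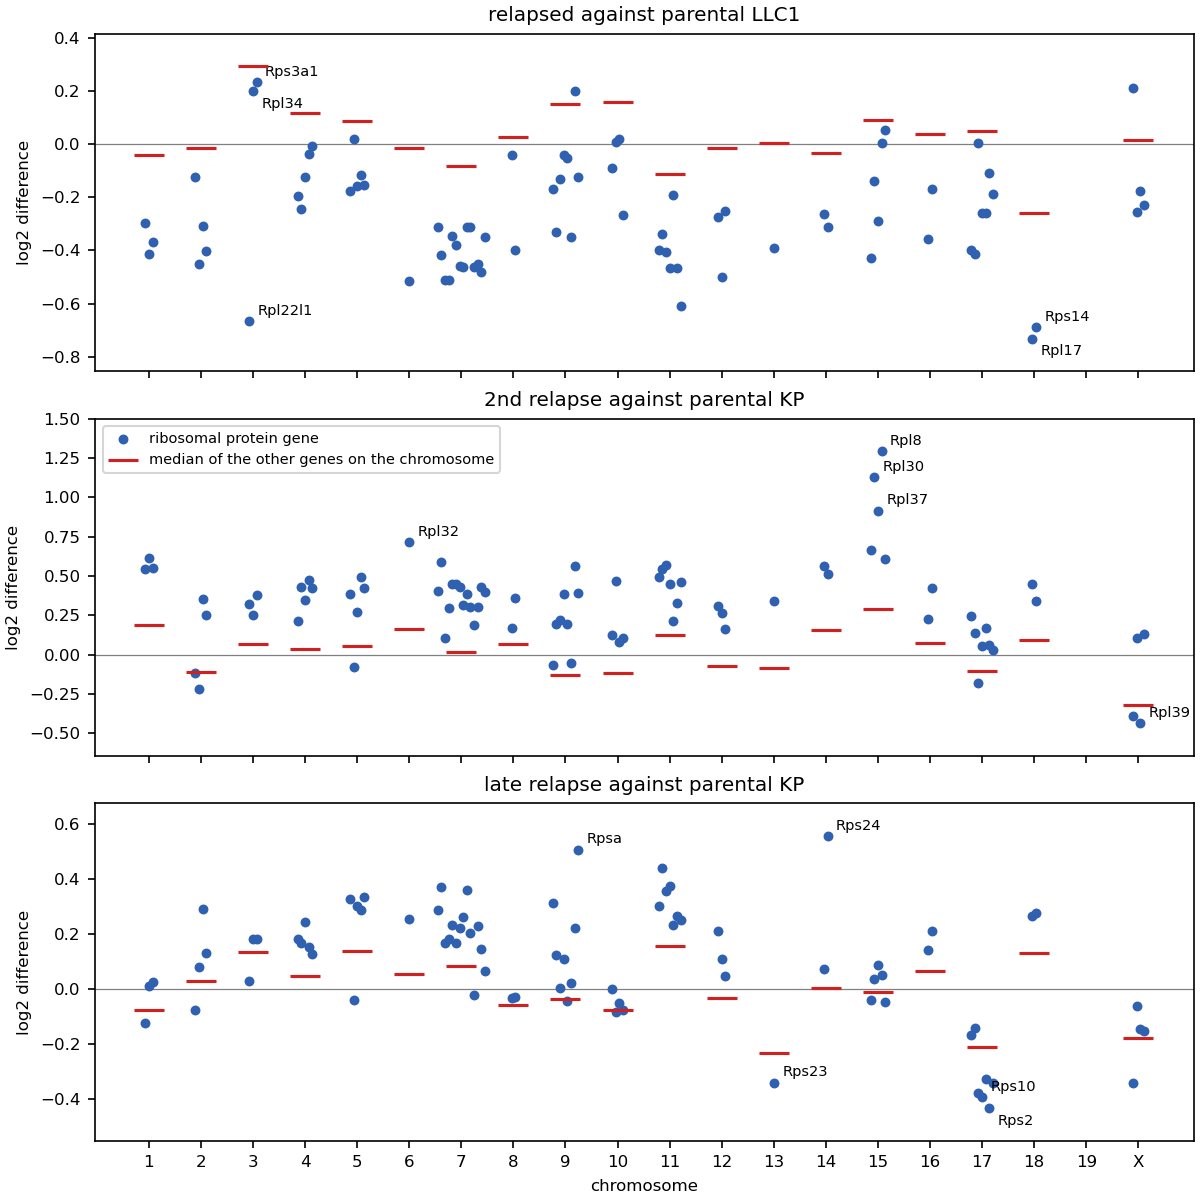
Log2 difference of each ribosomal protein gene (blue points) by chromosome in relapsed LLC1, 2nd relapse KP and late relapse KP tumours against parental ones, without Rps27. Red bars are the median of the other kept genes on the chromosome. Chromosome 15 in 2nd relapse, chromosome 17 in late relapse and chromosome 18 in relapsed LLC1 tumours hold members that lie apart from 0 on the same side as the bar.

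Across the 69 members with few reads in copies, a member's difference correlated with the median of its neighbours at Pearson's r of 0.79 in 2nd relapse, 0.77 in late relapse, 0.58 in 1st relapse, 0.67 in relapsed LLC1, 0.60 in chronic IFNG LLC1 and 0.37 in chronic IFNG KP tumours. Over all 83 kept members, copy-rich ones included, r was 0.76, 0.78, 0.32, 0.65, 0.31 and 0.14 in the same order. These values are across genes of the same libraries, and neighbours are shared between nearby members. For other kept genes taken 1 by 1 the same r was 0.15 to 0.34 in these comparisons. By Spearman's rank correlation the 69 members had 0.38 to 0.74, with 0.39 in chronic IFNG LLC1, and the other genes 0.19 to 0.43. Subtracting the neighbours' median left the members' own median close to what it was, from 0.36 to 0.34 in 2nd relapse and from -0.27 to -0.28 in relapsed LLC1. In late relapse it went from 0.13 to 0.08. Chromosome copy number was not measured here, and its part was not tested.

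Paralogues did not always move with their partners. Rpl7 fell by 0.37 in relapsed LLC1 (34767, 32222 and 33197 against 24316, 26511 and 26556 counts), while Rpl7l1 had overlapping groups and a difference of 0.00. In 2nd relapse KP tumours Rpl7 rose by 0.55, and Rpl7l1, with 2165, 2306 and 2166 counts in parental and 1809, 1822 and 2061 in 2nd relapse tumours, fell by 0.18. Whether the members of a pair differ in response was not tested.

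Rpl36al fell in both LLC1 groups, by 0.37 and 0.27. Rpl36a differed by -0.07 in chronic IFNG LLC1 (not called) and fell by 0.26 in relapsed LLC1. Rpl22l1 rose by 0.22 in 1st relapse and 0.32 in 2nd relapse KP tumours, where Rpl22 stood at 0.00 (not called) and 0.43. Rps27l had 1062, 1059 and 970 counts in parental KP, 1242, 1307 and 1345 in 1st relapse and 996, 896 and 1029 in 2nd relapse tumours. Only the 1st relapse group of these stood apart. Rpl11, the partner of Rpl5, fell by 0.26 and 0.20 in the LLC1 groups and rose by 0.21 in 2nd relapse tumours, though its copies hold over 10% of its counts. With them summed its difference in chronic IFNG LLC1 was -0.15 and not called (limma adjusted p 0.065).

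Rps27, a small-subunit protein, and its copy Rps27rt could not be told apart by their coding reads. The 252 coding bases without the stop codon, on chr3:90212522-90213651 and chr9:114982366-114982739 (both minus strand, GRCm38 with GENCODE vM21 transcripts), are identical, and the sequence shared by both is shown for this reason.
Rps27 and Rps27rt: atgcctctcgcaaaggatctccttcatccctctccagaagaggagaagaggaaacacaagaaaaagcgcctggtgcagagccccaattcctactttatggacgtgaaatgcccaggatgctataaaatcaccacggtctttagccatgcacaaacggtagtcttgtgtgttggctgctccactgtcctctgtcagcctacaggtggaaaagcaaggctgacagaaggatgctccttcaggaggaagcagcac

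The promoter windows printed above share 29 bases, from base 2 of the transcript in Rps27 and base 1 in Rps27rt. This run reaches the end of the printed Rps27 window, so the shared stretch may be longer. Upstream of it the windows share no run longer than 5 bases. Rps27 had 106, 126 and 6148 counts in parental LLC1, 7413, 8056 and 770 in chronic IFNG and 3069, 332 and 151 in relapsed LLC1 tumours. In KP 1st relapse tumours it had 3770, 104 and 11410. In each of these groups 1 or 2 libraries stood far above the rest. Rps27rt took 33.7% to 99.0% of the pair's counts over LLC1 libraries and 4.3% to 98.7% over KP libraries. Fitted differences of 1.88 (chronic IFNG LLC1), 1.82 (chronic IFNG KP) and 2.32 (1st relapse) for Rps27 were not called, and of -0.51, -0.25 and -1.20 for Rps27rt neither. With the replicate number as a block those of 1st relapse were called for both (limma adjusted p 0.0276 and 0.0496).

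The sum of the pair was far steadier, at 11008 ± 1290, 11818 ± 744 and 11390 ± 536 counts in parental, chronic IFNG and relapsed LLC1 tumours (SD, n = 3). In KP it was 8075 ± 240 in parental, 9028 ± 975 in chronic IFNG, 9653 ± 2071 in 1st relapse, 12204 ± 754 in 2nd relapse and 10116 ± 1104 in late relapse tumours. With copies summed, the difference was 0.56 in 2nd relapse (limma adjusted p 0.00069) and 0.30 in late relapse tumours (limma adjusted p 0.04).

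**Figure D5:**
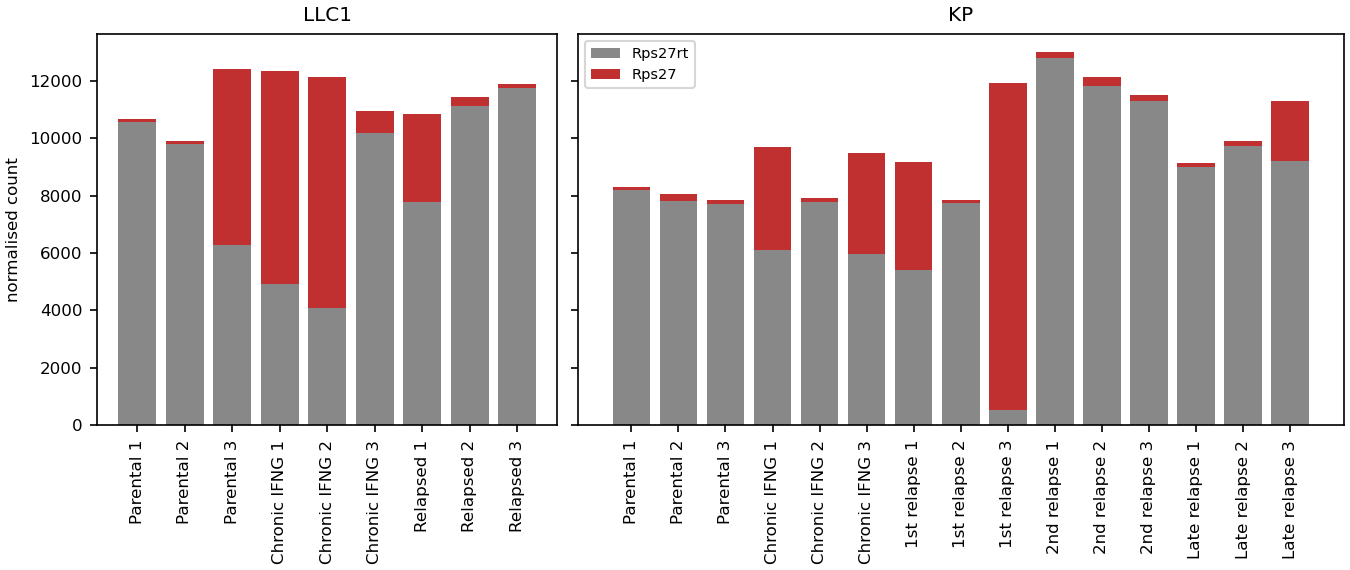
Normalised counts of Rps27 (red) stacked on those of Rps27rt (grey) in each library of LLC1 (left) and KP (right). The split between both genes differs among replicates of the same group, while the summed height varies less.

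Of the 85 members 74 had at least 1 near-identical copy in the annotation (at least 95% identity over 80% of the coding sequence), 512 copies in all. Copies took a median of 0.13% of a member's own and copied counts in LLC1 and 0.15% in KP. For 14 members they took over 10%, and levels of these are uncertain. They were Rpl5, Rpl10, Rpl11, Rpl12, Rpl23, Rpl27, Rpl27a, Rpl28, Rpl35, Rpl37, Rps16, Rps23, Rps27 and Rps27rt. Rpl5, which with Rpl11 can bind Mdm2, was uncalled at -0.08 in 2nd relapse tumours, but with its copies, which held 92.6% of its counts in KP, it rose by 0.40 (limma adjusted p 1.4e-05).

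Ribosomal proteins outside the symbol rule were set beside the members. Rack1, a scaffold on the small subunit, differed by -0.10 in chronic IFNG LLC1 (not called) and fell by 0.56 in relapsed LLC1. In KP it rose by 0.42 in 2nd and 0.28 in late relapse tumours. Fau fell by 0.33 and 0.31 in the LLC1 groups and rose by 0.83 in 2nd relapse.

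Other genes of the pathway came from lists of translation factors, ribosome assembly factors and regulators. Of 29 translation factors and other TOP mRNAs, 18 were lower and 0 higher in chronic IFNG LLC1, beside 15.5% and 9.03% of all genes. In relapsed LLC1 16 were lower and 0 higher, beside 19.5% and 25.9%. Chronic IFNG KP tumours had 7 lower and 1 higher, beside 9% and 12.8%. In 1st relapse tumours 15 were lower and 2 higher, beside 25.5% and 25.4%. In 2nd relapse tumours 22 were higher and 0 lower, beside 36.8% and 29%. In late relapse 9 were higher and 3 lower, beside 31% and 25.9%. These late relapse counts were near or below the share of all genes. Pabpc1, which binds poly(A) tails, fell by 0.46 in chronic IFNG LLC1 and rose 2.48-fold in 2nd relapse KP tumours. Eef1d, an elongation factor subunit, rose 2.25-fold and Eif3e, an initiation factor subunit, 2.22-fold there. These 3 lie on chromosome 15, as do 7 of the 29 listed genes, all 7 called higher with a median of 0.97. The 22 on other chromosomes had 15 higher, 0 lower and a median of 0.19.

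Of 34 assembly factors, 11 were lower and 0 higher in chronic IFNG LLC1, beside 15.5% and 9.03% of all genes. In relapsed LLC1 7 were lower and 5 higher, beside 19.5% and 25.9% of all genes, so these counts were near or below the share of all genes. In 2nd relapse KP tumours 11 were higher and 7 lower, also below the 36.8% and 29% of all genes. In late relapse tumours 18 were lower and 2 higher, beside 25.9% and 31%. Whether the lists differ from the members was not tested. Nucleolin (Ncl), which acts early in ribosome assembly, fell by 0.59 in chronic IFNG LLC1 and by 0.69 in 1st relapse KP tumours. Bop1 rose 1.96-fold and Heatr1 fell to 0.586 of its parental level in 2nd relapse tumours. Bop1 was the only listed assembly factor on chromosome 15, and the 33 on other chromosomes had 10 higher, 7 lower and a median of -0.003.

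Mitochondrial ribosomal proteins serve a separate ribosome. In chronic IFNG LLC1 they gave 18 lower and 1 higher of 78, beside 15.5% and 9.03% of all genes. In relapsed LLC1 they gave 10 and 12, below the 19.5% and 25.9% of all genes. In 2nd relapse KP tumours 50 were higher and 4 lower of 77, beside 36.8% and 29%. Of 19 genes of mTORC1 and TOP control, 5 were higher and 3 lower in 2nd relapse tumours, below the 36.8% and 29% of all genes. Of 11 RNA polymerase I genes, 5 were higher and 2 lower in 2nd relapse tumours, beside 36.8% and 29% of all genes. In relapsed LLC1 3 were lower, beside 19.5%. With so few genes these counts lie near those shares. Myc, a factor that drives ribosome genes, had 2975 mean counts in 2nd relapse against 2084 in parental KP tumours, a rise of 0.43 (limma adjusted p 2.9e-05), and fell by 0.21 in late relapse tumours. It was not called in LLC1 (0.02 and -0.06). Myc lies on chromosome 15, whose other kept genes also had a raised median in 2nd relapse tumours, and the part of this was not tested. Of 7 genes around p53 and ribosomal stress 6 fell in relapsed LLC1, where 19.5% of all genes were called lower. They were led by Cdkn1a (-2.00), Ccng1 (-1.88) and Mdm2 (-0.92), and Rps27l fell by 0.35 there. In 2nd relapse KP tumours genes of this list went both ways, with Cdkn1a at 0.76, Nop53 at 0.43 and Mdm4 at -0.40.

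Outside the members, the genes with the highest levels also moved. The top 2% by level, 160 non-member genes in LLC1 and 184 in KP, had medians of -0.11 in chronic IFNG LLC1, -0.16 in relapsed LLC1, 0.14 in 2nd relapse and -0.02 in late relapse tumours. In chronic IFNG KP and 1st relapse tumours they had -0.08 and -0.21, where the members had -0.04 and -0.01. Genes with transcripts under 1000 bases had medians of -0.07 in chronic IFNG LLC1, 0.06 in relapsed LLC1, 0.15 in 2nd relapse and 0.10 in late relapse tumours. The members' medians in these 4 comparisons were -0.20, -0.27, 0.34 and 0.13. Under quantile normalisation the medians of the top-level genes in them were -0.01, 0.02, -0.08 and -0.07, and in chronic IFNG KP and 1st relapse tumours 0.00 and -0.04. The part of level or length in the members' differences was not tested.

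The non-member genes whose levels followed the members' median profile most closely were Ddah1 (Pearson's r 0.994), Plau (0.990) and Celf4 (0.985) over the 9 LLC1 libraries, and Irx3 (0.981), Tmco1 (0.979) and Mlf2 (0.979) over the 15 KP libraries. They were chosen for this among all genes, over libraries that share their groups. The members themselves had a median r of 0.868 with that profile in LLC1 and 0.864 in KP, and 4 members in LLC1 and 8 in KP had an r below 0.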

How the data were processed

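RNA from 24 sorted tumour samples was sequenced from stranded total RNA libraries as 50-base pairs, per the labels' protocols. Tools named in the submitters' processing notes are DESeq2 1.34.0, Salmon 1.8.0 and cutadapt 2.9, with the GRCm38 build. The authors deposited log2-scale values (labelled vst, a variance-stabilising transform) in 1 table per line. The lowest value in each table (8.0272 in LLC1, 8.172 in KP) was taken as the value of a zero count, and normalised counts were calculated back from it, so those levels and the estimated depth rest on that form of the transform. By this inversion 71.2% to 78.2% of low values fell near whole reads.

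Genes whose mean in at least 1 group was 1 log2 unit above the lowest value were kept (10581 in LLC1, 11193 in KP). This equals 130.4 and 144.2 normalised counts. limma 3.58.1 (R 4.3.3), with an intensity trend, was fitted to the deposited log2 values of all groups of a line, and p-values were Benjamini-Hochberg adjusted over all kept genes of a comparison at 0.05. The fit was tested on simulated data. With 3 against 3 samples an exact permutation test of 1 gene cannot go below p = 0.1. Deviations of same-numbered samples from their group means correlated at -0.303 to 0.266 over 39 pairs. Parental and 1st relapse KP tumours were the only groups compared with all 3 pairs above 0.1 (0.112 to 0.206), and the replicate block is given beside that comparison where it changes a call. Copies were found with blastn 2.17.0. Gene names and positions came from GENCODE vM21, and 70 and 85 identifiers had no match there.

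Members, lists and tests were chosen with earlier results of these data known. Members named in each comparison with parental tumours were the 5 highest and 5 lowest, in others the 3 highest and 3 lowest, with fixed paralogues and stalk, p53-related and other members. For each line the 5 members with the smallest and largest ranges were added, and up to 3 genes of each pathway list. Other genes named were chosen after their values were seen. Some genes that these rules select are not reported here. Alternatives were no filter, a filter at 3 log2 units, quantile normalisation, median centring, no trend, a replicate block, each library left out and, added after seeing the data, near-identical copies summed.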

Additional observations from a re-analysis of the deposited data

Results flagged for a closer look

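The median member difference was -0.273 in relapsed LLC1 tumours and 0.34 in 2nd relapse and 0.132 in late relapse KP tumours, each against its own parental tumours, with all 3 libraries of each of these groups on the same side of the parental ones. Rpl32 differed by -0.517 in relapsed LLC1 and by 0.714 in 2nd relapse KP tumours. Rpl10 differed by 0.212 in relapsed LLC1 and by -0.391 in 2nd relapse and -0.344 in late relapse KP tumours, but with its copies summed its differences were -0.444, 0.053 and -0.122. The tables of the lines were normalised separately, and the difference between the lines was not tested. Groups of 3 samples were not searched for single outlying samples.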

How the results depend on the processing

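Of the results on member counts and medians, quantile normalisation moved the most. Under it chronic IFNG LLC1 tumours had 2 members higher, 19 lower and a median of -0.103, relapsed LLC1 8 higher and a median of -0.152, and relapsed against chronic IFNG LLC1 a median of -0.057. Chronic IFNG KP tumours had 4 higher, 3 lower and a median that changed sign to 0.031, and 1st relapse 32 higher, 9 lower and 0.084. Second relapse had 37 higher, 13 lower and 0.13, late relapse 0.092, 2nd against 1st relapse 22 higher, 15 lower and a median that changed sign to -0.001, and late against 2nd relapse 10 higher, 24 lower and -0.013. Median centring gave 1 higher in chronic IFNG LLC1, 1 higher in relapsed LLC1, 12 lower in chronic IFNG KP, 9 higher and a median of -0.051 in 1st relapse and a median of 0.295 in 2nd relapse. The stricter filter gave 1 higher in chronic IFNG LLC1, no filter 9 higher in 1st relapse, and summed copies 3 lower in 2nd against 1st relapse. The cause of these moves was not tested.

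Leaving out 1 library at a time gave 24 to 43 lower and 0 to 1 higher in chronic IFNG LLC1, 50 to 57 lower, 1 to 3 higher and a median of -0.339 to -0.247 in relapsed LLC1, and 20 to 36 lower and 7 to 15 higher in relapsed against chronic IFNG LLC1. It gave 2 to 7 lower and 0 to 2 higher in chronic IFNG KP, 4 to 20 higher in 1st relapse, 60 to 64 higher in 2nd relapse, 33 to 38 higher in late relapse, and a median of -0.212 to -0.156 in late against 2nd relapse. Parental LLC1 replicate 3 gave the 1 higher in chronic IFNG LLC1.

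With copies summed, differences changed sign for Rpl10 in relapsed LLC1 (-0.444), 2nd relapse (0.053) and late against 2nd relapse (-0.175), for Rpl5 in relapsed LLC1 (-0.269), 2nd relapse (0.398) and late relapse (0.287), for Rpl12 in 2nd relapse (0.142) and for Rps27 in 2nd against 1st relapse (0.34). Under quantile normalisation they did so for Rps6 (0.154) and Rpsa (0.198) in relapsed LLC1, Rpl3 (0.066) and Rps6 (0.04) in 1st relapse, Rpl36a (-0.042), Rps4x (-0.086) and Rps19 (-0.043) in 2nd relapse, and Rplp0 (0.224) in late against 2nd relapse. In 2nd against 1st relapse they were Rpl13a (-0.001), Rps19 (-0.288), Rps14 (-0.048), Rpsa (-0.139), Rplp0 (-0.147) and Rpl26 (-0.016).

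The replicate block gave 39 lower in chronic IFNG LLC1, 57 lower and 3 higher in relapsed LLC1, 19 higher and 19 lower in 1st relapse, 63 higher and 4 lower in 2nd relapse and 40 higher and 10 lower in late relapse, and changed 14 calls of named members. In 1st against parental KP tumours, where the numbers passed the check for pairing, it gained, among named members, Rps27, Rps27rt and Rpl7 (limma adjusted p 0.0483) and lost Rpl3 (0.0529), Rpl7l1 (0.0564) and Rps6 (0.0655). In the other comparisons with parental tumours and between relapses they did not pass it. At the estimated depth of the libraries Rpl39l and Rpl3l stayed below the filter.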
